A study of Mus musculus with 12 samples.

Results

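The lean WT macrophage transcriptome is described here from 3 RNA-seq libraries of the 12 in the series. These were all of the libraries labelled WT on NCD, and no measured value was used to choose them. They held CD45+ CD11b+ F4/80+ adipose tissue macrophages (ATMs) sorted from the stromal vascular fraction (SVF) of visceral adipose tissue (VAT) of C57BL/6 WT mice. The mice ate normal chow diet (NCD) from 6 weeks of age for 14 weeks and were sacrificed at 20 weeks, and the labels name no transgene or agent for them. The SVF pellets of 3 mice were combined before each sort, so that a library is a pool of animals and the spread over n = 3 libraries is the spread between pools. The other 9 libraries, of WT mice on high-fat diet (HFD) and of miR-146a-/- mice on either diet, were not compared here. All levels are FPKM, the reads of a gene divided by its listed length and by the total reads of the library, and no test was run, since nothing was contrasted.

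Macrophages are phagocytes that take up dying cells, debris, lipid, iron and microbes, break them down in lysosomes and show peptides from them to T cells on MHC class II. In lean fat they are largely tissue-resident cells that clear dying adipocytes and take up the lipid these release, while monocytes from the blood add to the pool. Their usual markers are lysozyme M (Lyz2), the chains of the complement starter C1q (C1qa, C1qb, C1qc), the growth factor receptor Csf1r and the adhesion-type receptor F4/80, whose gene Adgre1 stands in the table under its older symbol Emr1.

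The study is built on miR-146a, a microRNA that dampens Toll-like receptor and IL-1 receptor signalling through its targets Traf6 and Irak1, and which these WT cells carry intact. Its 2 mature arms are shown because they are what the other genotype lacks. They lie at chr11:43374435-43374456 (5p) and chr11:43374399-43374420 (3p) on the minus strand of GRCm38.p6 (RefSeq), and capitals mark the seed, bases 2 to 8.
mmu-miR-146a-5p: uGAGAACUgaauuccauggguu
mmu-miR-146a-3p: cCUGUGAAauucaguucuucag
The level of the microRNA itself was not analysed here. Its target Irak1, a kinase that relays MyD88 signals, had a mean of 13.9 FPKM, and Traf6, the ubiquitin ligase downstream of it, 6.77 FPKM.

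The windows upstream of 3 of the most abundant genes are shown next, since Retnla led all protein-coding genes and Lyz2 and C1qb define the cell type. Each runs over the 250 bases before the annotated start, from RefSeq on GRCm38.p6. Retnla is at chr16:48842359-48842608 on the plus strand, Lyz2 at chr10:117282273-117282522 and C1qb at chr4:136886201-136886450 on the minus strand. Capitals mark GAGGAA, a form of the sequence recognised by the myeloid transcription factor PU.1, on either strand. Other forms were not searched for.
Retnla: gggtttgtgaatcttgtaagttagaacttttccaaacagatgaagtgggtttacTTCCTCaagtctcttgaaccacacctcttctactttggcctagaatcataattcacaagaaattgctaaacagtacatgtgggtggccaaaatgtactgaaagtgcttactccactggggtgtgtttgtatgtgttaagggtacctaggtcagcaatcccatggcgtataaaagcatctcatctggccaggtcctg
Lyz2: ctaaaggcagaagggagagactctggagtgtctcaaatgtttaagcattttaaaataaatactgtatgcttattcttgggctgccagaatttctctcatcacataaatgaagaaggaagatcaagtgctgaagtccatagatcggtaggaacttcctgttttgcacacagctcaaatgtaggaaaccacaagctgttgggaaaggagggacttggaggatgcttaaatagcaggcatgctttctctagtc
C1qb: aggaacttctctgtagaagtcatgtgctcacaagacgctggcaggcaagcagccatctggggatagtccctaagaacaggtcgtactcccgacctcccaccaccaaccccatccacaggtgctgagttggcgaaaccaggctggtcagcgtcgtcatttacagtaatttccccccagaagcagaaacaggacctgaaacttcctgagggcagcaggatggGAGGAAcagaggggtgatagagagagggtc
These letters occurred once each in the Retnla and C1qb windows and not in the Lyz2 window. They were in 11 of the 23 windows matched to the 30 most abundant named genes. With 1 window for each listed gene that had one, they were in 2380 of 10424 (22.8%). Of all 32851 windows of this length 7639 had them (23.3%). The Eef1a1 window, without a match, was matched across a distance of 7427 bases between annotated starts. A match of 6 letters is a description of the sequence and not a binding site.

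The 3 libraries were of like depth. The authors divided by 10489119, 10461510 and 10723142 reads in libraries 1, 2 and 3, inside the range of 9998868 to 11559282 over the 12 libraries. Of the 15393 genes listed, 12038 (78.2%) had a mean of at least 1 FPKM, 5110 of at least 10, 497 of at least 100 and 40 of at least 1000. The median gene was at 5.08 FPKM, and 101 genes had no read in any of the 3 libraries. Across the 12038 genes at 1 FPKM or more, the log2(FPKM + 1) values of libraries 2 and 3 correlated with Pearson's r = 0.977, those of libraries 1 and 3 with 0.969 and those of libraries 1 and 2 with 0.967, where the points are genes and not independent replicates. Library 1 was on average the farthest from the middle value of a gene, at 0.141 log2 units, with library 2 at 0.104 and library 3 at 0.0935. The share of all genes that were highest or lowest in each library was not counted. Such counts for single lists, given below, therefore have no baseline beside them.

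Few genes carried much of the summed FPKM. The 100 most abundant genes held 55.4% ± 1.01 of it (SD, n = 3) and the 10 most abundant 35.4% ± 1.37. On the scale of reads, which is not per length, the 100 genes with the most reads held 28.1% ± 0.390. Short, structured RNAs account for much of the gap, since dividing by a short length turns each read into a large FPKM. Rn7sk, the RNA of the 7SK particle that restrains transcription elongation, stood first at 80913, 76612 and 72844 FPKM in libraries 1, 2 and 3, with a listed length of 331 bases. It was followed by Rpph1 at 37364, 34042 and 31868 FPKM and Rmrp at 22334, 17069 and 17940 FPKM, the RNAs of the RNase P and RNase MRP enzymes. The ranges of these 3 did not overlap. Their levels are uncertain, since 68.1% of the 50-base windows of Rn7sk and Rpph1 and all of those of Rmrp occur in other annotated genes too. Together the 58 genes typed as miscellaneous RNA had 26.0% of the summed FPKM and 4.22% of the reads, while the 13352 typed first as protein-coding had 59.4% of the FPKM and 90.7% of the reads.

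**Figure D1:**
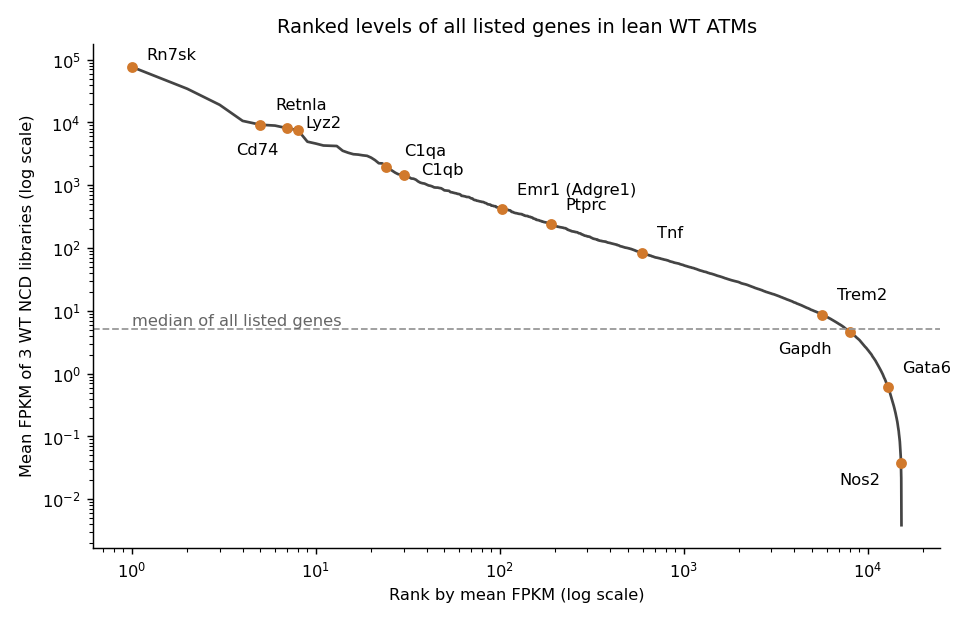
Mean FPKM of the 3 WT NCD libraries against rank, both on log scales, for all listed genes with a read; orange points mark named genes and the dashed line is the median of all listed genes. Retnla at 9208 FPKM and Lyz2 at 8105 FPKM stand at rank 5 and 7, while Nos2 at 0.0378 FPKM is near the foot of the curve.

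Ranked by reads, Rn7sk took 2.54% of all reads, the mitochondrial 16S ribosomal RNA mt-Rnr2 1.41% and Rpph1 1.10%. Next came Cd74 with 1.06%, the nuclear long noncoding RNA Malat1 with 1.04% and Lyz2 with 1.03%. Sepp1, Actb, the giant scaffold protein gene Ahnak and H2-Aa completed the first 10, each with 0.806% to 0.890%. Of these, Ahnak, whose transcript is long, stood at rank 99 by FPKM, with 443 FPKM.

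Among named genes of at least 300 bases, leaving out ribosomal protein, mitochondrial and small RNA genes, Retnla stood first. It encodes the secreted resistin-like molecule alpha, a marker of alternative activation, and had 9079, 8891 and 9655 FPKM in libraries 1, 2 and 3 (mean 9208 ± 398, SD). Lyz2 was second at 8147, 8028 and 8141 FPKM (mean 8105 ± 66.6), and every Retnla value was above every Lyz2 value. Cd74, the invariant chain that guides MHC class II, came next at 8391, 7473 and 6752 FPKM, a range that overlapped that of Lyz2. The class II chains H2-Aa, H2-Eb1 and H2-Ab1 followed at 4301 ± 182, 4222 ± 285 and 3546 ± 323 FPKM, and then the selenium carrier Sepp1 at 3126 ± 132 and the cytoskeletal genes Actb at 3082 ± 55.6 and Tmsb4x at 3001 ± 202. Places 10 to 20 went to Apoe, C1qa, B2m, Crip1, Itm2b, Malat1, C1qb, Psap, Cst3, Tyrobp and F13a1, with 2244 to 1228 FPKM. Places 21 to 30 went to Ccl6, Lyz1, Ctss, Junb, Pf4, Gpx1, C1qc, Eef1a1, Ighm and Mrc1, with 1152 to 831 FPKM. The order is coarse: of the 29 neighbouring pairs, 24 had overlapping ranges over the 3 libraries and 5 did not. The 5 steps that stood apart were Retnla over Lyz2, Cd74 over H2-Aa, H2-Eb1 over H2-Ab1, Tmsb4x over Apoe and Crip1 over Itm2b.

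The markers of the sort gate and of the cell type were present in each library. Emr1 (Adgre1; chromosome 17, 57358685 to 57483529 on the plus strand of mm10) had 405, 437 and 417 FPKM, Ptprc, the gene of CD45, 227, 237 and 249 FPKM, and Itgam, the gene of CD11b, 143, 133 and 137 FPKM. Emr1 lay above 99.3% of the listed genes, Ptprc above 98.8% and Itgam above 97.8%, although 66.3% of the windows of Itgam also occur in another annotated gene and its level is uncertain. C1qa (chromosome 4, 136895916 to 136898803) had 1902, 2133 and 1928 FPKM and its neighbour C1qb 1402, 1591 and 1387 FPKM. The 3 C1q chains kept nearly fixed proportions, with C1qa at 1.36 ± 0.0253 times C1qb and C1qb at 1.59 ± 0.0415 times C1qc (SD, n = 3), although all 3 were highest in library 2. All 27 genes of the macrophage core list were at 1 FPKM or more, 26 of them at 10 or more, with a median of 238 FPKM. Beside the markers these included the signalling adaptor Tyrobp at 1284 ± 69.5 FPKM, the protease Ctss at 1078 ± 66.4, Csf1r at 444 ± 21.4, the endotoxin co-receptor Cd14 at 408 ± 27.6 and the lysosomal Cd68 at 307 ± 28.2. The lowest was the lipid receptor Trem2 at 8.71 ± 1.73 FPKM.

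Lyz2 has a near copy, Lyz1, at 1077, 1047 and 1184 FPKM, and Lyz2 stood 7.37 ± 0.431 times as high (SD, n = 3). The first 150 coding bases of both are shown because reads can be told apart only where the copies differ, which capitals mark. They are spliced stretches within chr10:117280792-117282242 (Lyz2) and chr10:117291180-117292838 (Lyz1), both on the minus strand of GRCm38 (GENCODE).
Lyz2: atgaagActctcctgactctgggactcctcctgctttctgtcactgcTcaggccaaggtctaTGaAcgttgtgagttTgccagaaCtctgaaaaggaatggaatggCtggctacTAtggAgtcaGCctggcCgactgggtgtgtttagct
Lyz1: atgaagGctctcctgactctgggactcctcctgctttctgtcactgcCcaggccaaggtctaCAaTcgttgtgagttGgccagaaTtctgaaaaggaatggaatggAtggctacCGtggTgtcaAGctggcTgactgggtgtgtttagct
Over the 447 coding bases the genes differed at 22, and 80 of the 398 windows of 50 bases, the read length, were identical in both. The sources do not say how reads that fit both places were counted, so the split between Lyz2 and Lyz1 is uncertain.

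**Figure D2:**
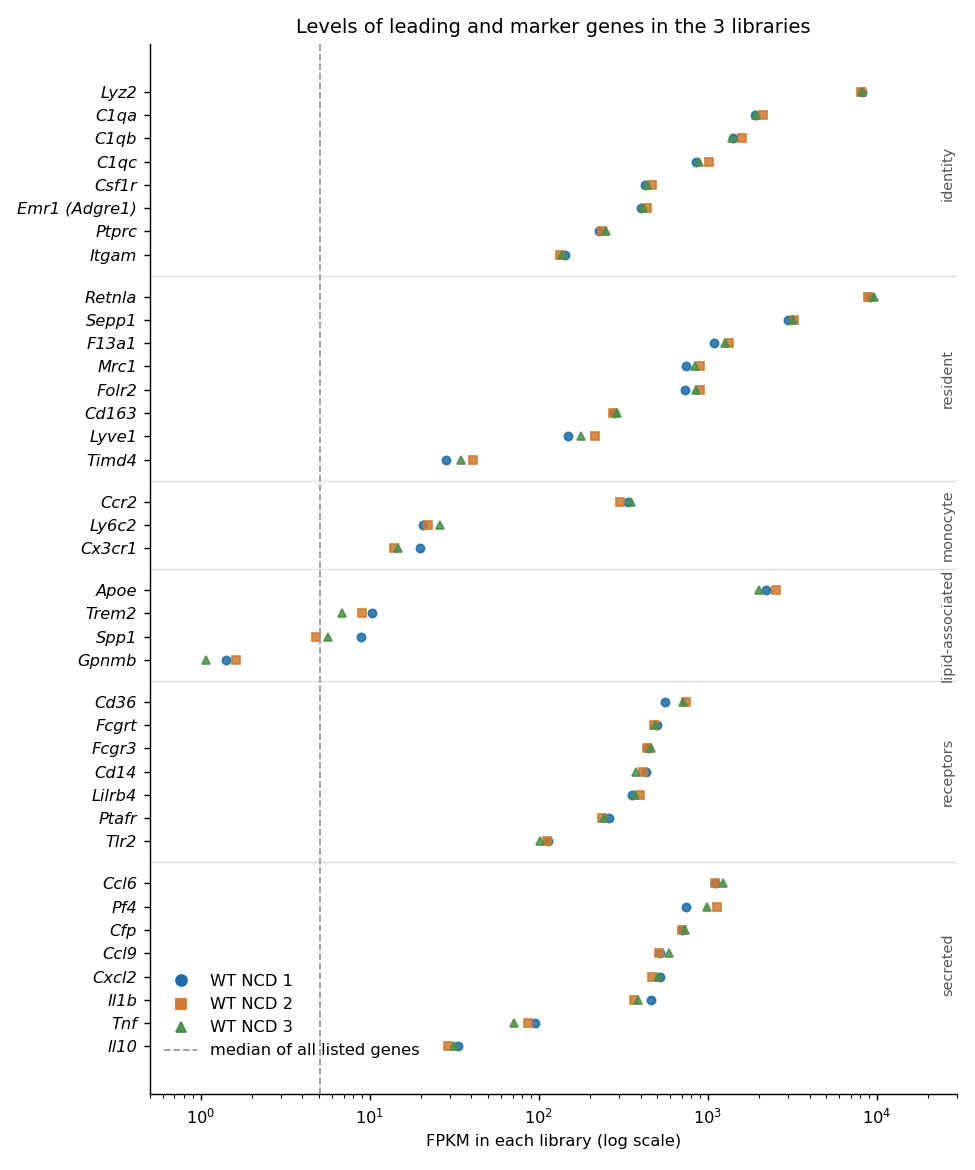
FPKM on a log scale in each of the 3 WT NCD libraries (circle, square and triangle) for leading and marker genes grouped by role, with the median of all listed genes as a dashed line. Lyz2 lies at 8028 to 8147 FPKM in all 3 libraries, whereas Trem2, Spp1 and Gpnmb lie near or below the dashed line.

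Genes of tissue-resident and alternatively activated macrophages had a median of 269 FPKM. Of the 47 lists, only MHC class II (278 FPKM) and the mitochondrially encoded genes (282 FPKM) had a higher median. The latter rests on the 9 of 15 mitochondrial members that were listed. Of the 30 resident and alternatively activated genes, 26 were at 10 FPKM or more. Behind Retnla and Sepp1 came the transglutaminase F13a1 at 1093, 1333 and 1258 FPKM, the chemokine Pf4 at 743, 1138 and 995, the mannose receptor Mrc1 at 748, 904 and 842, the folate receptor Folr2 at 733, 897 and 851 and the lectin Fcna at 644, 661 and 647. The haemoglobin scavenger Cd163 had 281 ± 6.98 FPKM, the hyaluronan receptor Lyve1 181 ± 34.0 and the phosphatidylserine receptor Timd4 34.6 ± 6.33. In this list 22 of the 29 members at 1 FPKM or more were lowest in library 1, and 22 were highest in library 2. No share over all genes stands beside these counts. A few members usually listed with this state were far below the median of the list. Arg1, the arginase of IL-4 stimulated mouse macrophages, had 2.68 ± 1.45 FPKM, the chitinase-like Chil3 11.2 FPKM, the complement receptor Vsig4 6.14 FPKM, Cd5l 2.12 FPKM and the scavenger receptor Marco 0.285 FPKM.

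Monocyte genes were uneven. Ccr2, the receptor that brings monocytes into tissue, had 336, 304 and 350 FPKM, fibronectin (Fn1) 323, 228 and 231 FPKM and Ifitm6 143, 121 and 159 FPKM. Fn1, unlike Ccr2 and Ifitm6, was highest in library 1, as most fibroblast markers were. The part of other cells in the Fn1 level was not tested. Ly6c2, which marks classical monocytes, had 20.7, 22.0 and 26.0 FPKM and Cx3cr1 19.7, 13.8 and 14.7 FPKM. Ccr2 was thus 20.9 ± 3.53 times Cx3cr1. The list's median was 10.9 FPKM, with 9 of 15 members at 10 FPKM or more, and Cd300e lay lowest at 0.679 FPKM.

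The 23 genes of the lipid-associated list ran from 2244 to 0.416 FPKM, with a median of 97.02 FPKM and 15 of them at 10 FPKM or more. Apoe, Ctsb, Cd36, Ctsd and Lgals1 led, with 2244, 680, 672, 618 and 464 FPKM, and the lipid droplet coat gene Plin2 had 241, 147 and 198 FPKM. Lgals3, Lipa, Lpl, Fabp4, Cd63 and Cd9, which also belong to this state, had 222, 161, 101, 97.02, 35.5 and 16.2 FPKM. Fabp4, at 67.8, 108 and 115 FPKM, and Lpl, at 94.2, 114 and 95.5 FPKM, were lowest in library 1. The sum of the adipocyte markers below was lowest there too, and the part of adipocyte RNA in these levels was not tested. At the low end Trem2 had 10.3, 8.99 and 6.86 FPKM, osteopontin (Spp1) 6.44 ± 2.13, Mmp12 2.89 FPKM, Gpnmb 1.37 ± 0.267 and Cd109 0.416 FPKM. The integrin Itgax, the gene of CD11c, had 23.7 ± 1.45 FPKM, and Mrc1 was 35.2 ± 4.62 times as high. Folr2 was 98.3 ± 26.4 times as high as Trem2.

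All 36 macrophage transcription factors were listed, 34 of them at 1 FPKM or more, with a median of 31.2 FPKM. Cebpb, a factor of inflammatory and alternative gene programmes, led with 231, 178 and 177 FPKM, highest in library 1. Irf5 had 105 ± 2.83 FPKM, Klf2 103 ± 12.4 and the oxidative stress factor Nfe2l2 73.5 ± 9.21. Spi1 (the gene of PU.1) and Cebpa, which set macrophage identity, had 65.1 ± 3.92 and 61.1 ± 7.90 FPKM. Pparg, which drives lipid uptake genes, had 11.7 FPKM, and Spic, a factor of iron-recycling macrophages, 10.9 FPKM. The oxysterol receptor Nr1h3 (LXR alpha) had 2.27 FPKM while the related gene Nr1h2 (LXR beta) had 14.2 FPKM. Gata6, which marks peritoneal macrophages in the mouse, had 0.612 FPKM and Bhlhe41 0.758 FPKM, the only factors of the list below 1 FPKM.

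Of the receptors, C-type lectins were the most abundant list, with a median of 127 FPKM and 22 of 25 members at 10 FPKM or more. Behind Mrc1 stood Mgl2 at 390, 552 and 483 FPKM and 3 genes of the Cd209 cluster, Cd209f at 291, 402 and 392, Cd209a at 277, 307 and 284 and Cd209d at 207, 317 and 288 FPKM. Of the 25 lectins, 20 were highest in library 2 and 18 lowest in library 1, again with no share over all genes beside these counts. Members of the cluster share sequence with other genes, since 29.8% of the 50-base windows of Cd209f and 16.6% of those of Cd209g occur elsewhere in the transcriptome, and their levels are uncertain to that degree.

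Receptors for antibody were led by Fcgrt, which recycles IgG, at 504, 483 and 487 FPKM. The activating receptor Fcgr3 had 447 ± 13.8 FPKM and its signalling chain Fcer1g 351 ± 17.3 FPKM. The inhibitory Fcgr2b had 116 ± 5.40 FPKM, and the high-affinity Fcgr1 and Fcgr4 had 33.1 ± 3.20 and 29.7 ± 1.64 FPKM. Of 9 listed members, 7 were at 1 FPKM or more, and Fcer2a at 0.211 and Pigr at 0.0232 FPKM were not. Among other inhibitory receptors Lilrb4 led with 355, 398 and 372 FPKM, an uncertain level since 96.6% of its windows also occur in another gene, ahead of Sirpa, the receptor for the CD47 signal, at 135 ± 9.57 FPKM, and 18 of 19 were at 1 FPKM or more. The checkpoint ligand Cd274 had 5.96 FPKM and Pdcd1lg2 0.688 FPKM.

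Scavenger and uptake receptors were led by Cd36, a receptor for oxidised lipoprotein and fatty acids, at 562, 742 and 711 FPKM. Stab1 had 114 ± 4.83 FPKM, the lysosomal Scarb2 110 ± 7.54, Msr1 42.5 ± 7.22 and Lrp1 31.8 ± 4.91 FPKM. Among genes for uptake of apoptotic cells the bridging ligands were the more abundant, Gas6 at 268 ± 27.2 and Pros1 at 85.9 ± 2.46 FPKM. Their receptors Axl and Mertk had 54.4 ± 4.31 and 34.0 ± 2.62 FPKM, while Tyro3, of the same receptor family, had 0.102 FPKM.

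Pattern recognition genes had a median of 14.4 FPKM. Cd14 led with 431, 415 and 377 FPKM, and Ly86, which encodes MD-1, the partner of the Toll-like protein CD180, followed with 293 ± 4.08 FPKM. Tlr2 was the highest Toll-like receptor at 114, 113 and 102 FPKM, then Tlr8 at 56.1 ± 3.00, Tlr7 at 47.6 ± 6.16 and the endotoxin receptor Tlr4 at 46.2 ± 5.89 FPKM. Tlr7 overlapped both Tlr8 and Tlr4 over the 3 libraries, but Tlr8 and Tlr4 did not overlap each other. Tlr9 and Tlr3 had 5.46 and 4.77 FPKM, and Tlr12 was the only member of the list below 1 FPKM, at 0.465. Among cytosolic sensors Nlrp3 had 37.9 ± 5.25 FPKM and Tmem173, the gene of STING, 33.9 ± 3.27 FPKM, beside Mb21d1, the gene of cGAS, at 4.94 FPKM.

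Among receptors for cytokines and growth factors, Csf1r was followed by Ifngr1 at 143 ± 3.51, Csf2ra at 110 ± 7.32, Il10ra at 98.2 ± 5.92 and Tgfbr2 at 91.8 ± 3.74 FPKM. The IL-4 receptor chain Il4ra had 65.7, 64.2 and 64.5 FPKM, and both TNF receptors were at similar levels, Tnfrsf1a at 66.0 ± 2.48 and Tnfrsf1b at 62.2 ± 3.13 FPKM. The receptors for adiponectin, Adipor2 and Adipor1, had 38.4 and 32.3 FPKM and the insulin receptor Insr 9.57 FPKM, whereas the leptin receptor Lepr had 0.139 FPKM. Decoy Il1r2 had 14.4 FPKM against 1.76 FPKM for the signalling IL-1 receptor Il1r1. Chemoattractant receptors after Ccr2 were Ccrl2 at 129 ± 21.2, Cxcr4 at 106 ± 14.3 and Ccr1 at 95.6 ± 1.69 FPKM, with C3ar1 and C5ar1 at 79.7 and 60.1 FPKM. The neutrophil receptor Cxcr2 had 0.747 FPKM, and Cxcr1 had no read in any library.

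Of the G protein-coupled receptors for hormones, nucleotides and lipids, Ptafr, the receptor for platelet-activating factor, had 260, 236 and 242 FPKM, and none of the other 29 listed members reached 100 FPKM. Gpr34 had 90.4 ± 12.6 FPKM, the acid sensor Gpr65 51.7 ± 4.73 and the niacin and ketone receptor Hcar2 62.0, 43.7 and 42.1 FPKM. The purine receptors P2ry6 and P2ry12 had 36.3 and 35.6 FPKM, and the fatty acid receptors Ffar4 and Ffar2 0.996 and 0.274 FPKM. In the adhesion list the tetraspanin Cd81 led with 217 ± 25.9 FPKM, and the integrin beta chains Itgb1 and Itgb2 had 168 ± 9.56 and 162 ± 3.21 FPKM.

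Within the secreted lists the most abundant genes after Retnla were lipid carriers, complement, a protease inhibitor and chemokines, while Lyz2 and Sepp1, whose products are secreted too, stand in other lists. CC chemokines had a median of 113 FPKM over 16 listed genes, 12 of them at 10 FPKM or more. Ccl6 and Ccl9, made by resting myeloid cells in the mouse, had 1152 ± 74.2 and 543 ± 42.4 FPKM. The monocyte attractants Ccl7, Ccl2, Ccl8 and Ccl12 had 412 ± 82.1, 360 ± 39.4, 338 ± 99.7 and 113 ± 35.9 FPKM. Ccl8 was highest in library 1, at 453 FPKM against 274 and 287 in libraries 2 and 3, whereas Ccl12 was highest in library 2, at 154 FPKM against 91.3 and 92.9 in libraries 1 and 3. The eosinophil attractant Ccl24 had 222 ± 36.8 FPKM, and the inflammatory chemokines Ccl3 and Ccl4 had 137 ± 16.5 and 113 ± 16.8 FPKM. Ccl17 and Ccl22, ligands of Ccr4, were lower at 15.1 and 6.77 FPKM. Of the CXC chemokines, Pf4 (Cxcl4) had 958 ± 200 FPKM, and the neutrophil attractants Cxcl2 and Cxcl1 had 521, 470 and 507 FPKM and 136, 111 and 135 FPKM. The interferon-induced Cxcl10 and Cxcl9 had 22.1 and 6.35 FPKM.

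Cytokine genes spanned from 406 to 0.234 FPKM, and 17 of 36 were at 10 FPKM or more. Il1b led with 461, 368 and 388 FPKM, and its natural antagonist Il1rn had 51.3, 37.7 and 33.7 FPKM, so that Il1b was 10.1 ± 1.28 times as high. Tnf had 94.9, 86.4 and 71.5 FPKM, Il6 78.8, 68.2 and 82.5 FPKM and the anti-inflammatory Il10 33.4, 29.0 and 31.4 FPKM. These 4 cytokines were present in each of the lean WT libraries, above the median gene. The cells came from enzyme-digested VAT, and the part of the digestion in these levels was not tested. Tgfb1 had 26.6 FPKM, Il18 28.9 FPKM and Il1a 26.6 FPKM, but the IL-12 chain Il12b had 1.37 FPKM, Ifnb1 1.81 FPKM and the macrophage growth factor Csf1 1.87 FPKM.

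Beyond C1q, the complement list was led by properdin (Cfp), which stabilises the alternative pathway convertase, at 707, 703 and 730 FPKM. C4b had 121, 133 and 117 FPKM and C3 62.1, 29.7 and 45.9 FPKM. C3, unlike C4b, had the library order of the summed fibroblast markers below, and the part of other cells in its level was not tested. C4b shares 34.6% of its windows with other genes, its copy C4a having 0.198 FPKM. The terminal genes C8g and C7 had 0.106 and 0.0470 FPKM. Lipid carriers were Apoe at 2197, 2531 and 2005 FPKM, prosaposin (Psap) at 1450 ± 77.4 and the phospholipid carrier Pltp at 474 ± 47.3 FPKM, with lipoprotein lipase (Lpl) at 94.2, 114 and 95.5 FPKM. Among growth factors Grn had 185 ± 5.44 FPKM, Metrnl 138 ± 7.63, Igf1 28.6 ± 4.15 and Gdf15 27.9 ± 5.76, and 12 of 32 listed members were below 1 FPKM. The protease inhibitor cystatin C (Cst3) had 1358 ± 63.8 FPKM, Timp2 106 ± 5.90, the urokinase gene Plau 98.8 ± 9.01 and the gelatinase Mmp9 94.0 ± 8.83 FPKM.

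**Figure D3:**
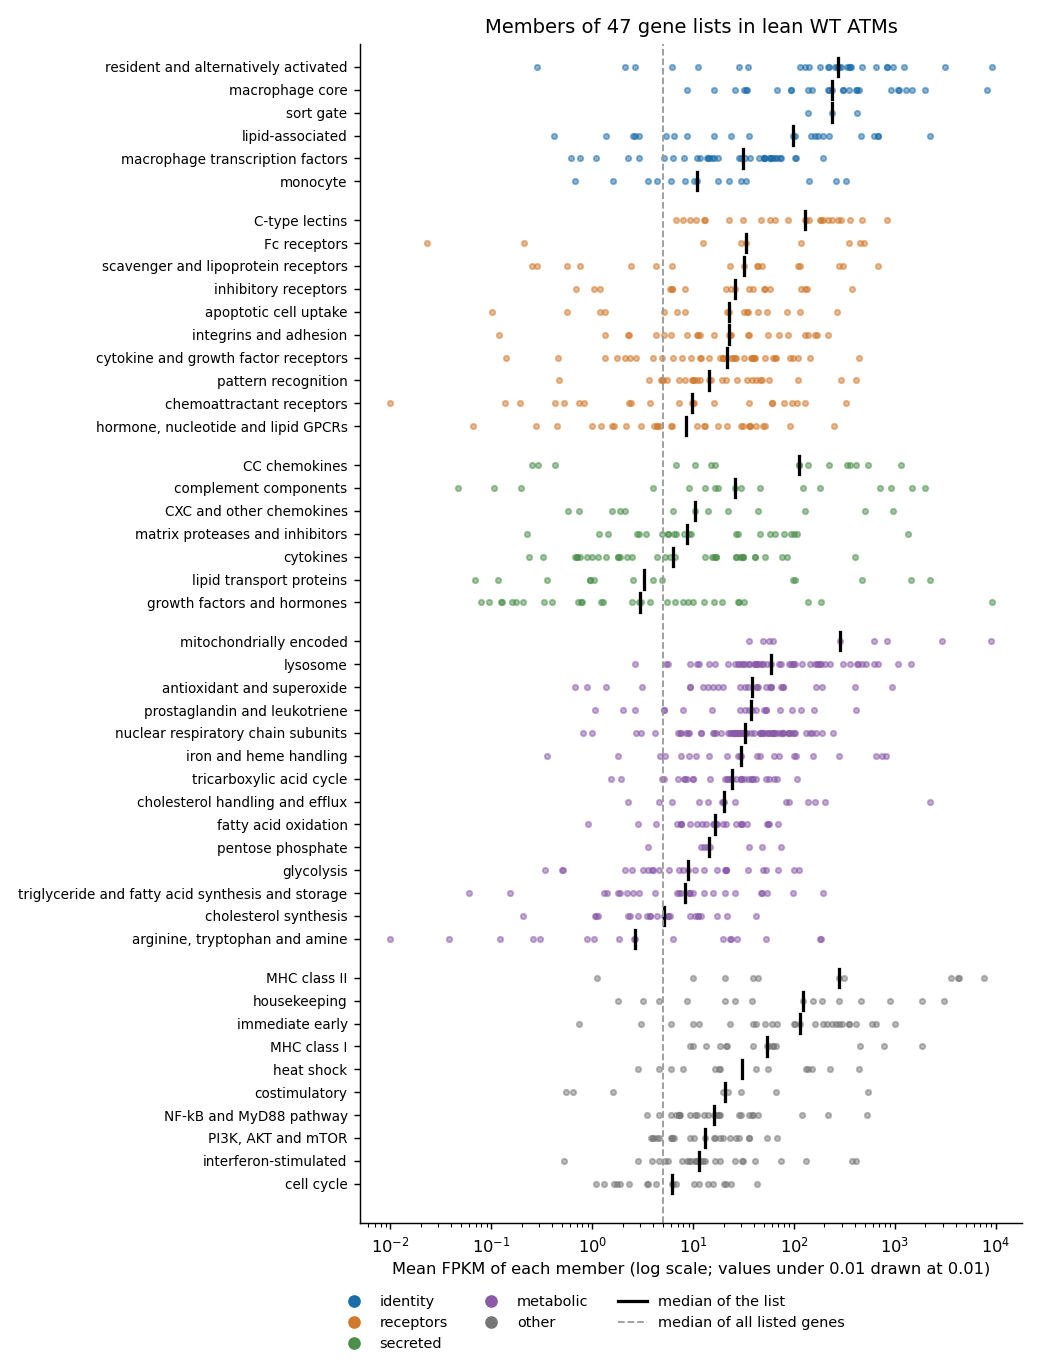
Mean FPKM on a log scale of each listed member (points) of 47 gene lists, coloured by class, with the median of each list as a black bar and that of all listed genes as a dashed line. The medians of 44 lists lie right of the line; those of growth factors and hormones, lipid transport proteins, and arginine, tryptophan and amine genes lie left of it.

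Antigen presentation took a large share. The 11 class II genes held 3.30%, 3.09% and 2.84% of the reads in libraries 1, 2 and 3, and 8 of them were highest in library 1. The peptide loaders H2-DMa and H2-DMb1 had 314 ± 16.1 and 278 ± 11.4 FPKM, and Ciita, the master regulator of the pathway, 44.3 ± 2.17 FPKM. Among the 15 class I genes, which were lowest in library 2 in 12 cases, B2m had 1834 ± 176, H2-D1 779 ± 19.1 and H2-K1 447 ± 28.6 FPKM. For these counts of class II and class I genes the share over all genes was not counted. Costimulatory genes were led by Cd83 at 625, 527 and 457 FPKM, with Cd86 at 66.6 ± 5.63, Cd80 at 22.0 and Cd40 at 19.6 FPKM.

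Of the 53 lysosomal genes all were at 1 FPKM or more, 49 at 10 or more and 52 above the median gene, with a median of 58.6 FPKM and 2.63% ± 0.0642 of the reads. After Psap and Ctss came the cathepsins Ctsb and Ctsd, the membrane protein Lamp1 at 512 ± 12.6 FPKM, the legumain gene Lgmn at 472 ± 31.2 and the hexosaminidase Hexa at 434 ± 17.5 FPKM. The lowest was Atp6v0d2, a proton pump subunit of osteoclasts and foamy macrophages, at 2.65 FPKM. Of the windows of Ctsd, 32.4% also occur in other genes. Iron and heme genes had Fth1 at 816 ± 26.4, transferrin (Trf) at 744 ± 45.7 and Ftl1 at 653 ± 37.9 FPKM. The levels of Trf and Ftl1 are uncertain, with 59.4% and 50.9% of their windows also in other genes, against 1.59% for Fth1. The heme-degrading Hmox1 had 153 ± 17.8 FPKM and the iron exporter Slc40a1 70.9, 119 and 112 FPKM, low in library 1.

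Of the 28 antioxidant and superoxide genes, Gpx1 had 927 ± 30.6 FPKM and Sod1 190 ± 16.7 FPKM, and the membrane chains of the phagocyte oxidase, Cyba and Cybb, had 401 ± 21.2 and 165 ± 5.56 FPKM. The cytosolic oxidase subunit Ncf1 had 77.4 ± 4.84 FPKM, while Nqo1 and Sod3 were below 1 FPKM. Nos2, the inducible nitric oxide synthase, had 0, 4 and 1 reads in libraries 1, 2 and 3, a mean of 0.0378 FPKM. In the arginine, tryptophan and amine list Glul and Sat1, for glutamine synthesis and polyamine turnover, led with 185 ± 7.19 and 180 ± 11.8 FPKM, and its median was 2.65 FPKM.

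Of the cholesterol genes, those for handling and efflux exceeded those for synthesis. The 15 handling and efflux genes had a median of 20.1 FPKM and were led by Apoe at 2244 FPKM. Npc2 had 203 ± 14.0, Lipa 161 ± 8.45, Abca1 82.6 ± 9.37 and Abcg1 20.1 FPKM. The 23 synthesis genes had a median of 5.18 FPKM, beside 5.08 FPKM for all listed genes. Of the 22 synthesis genes at 1 FPKM or more, 14 were highest in library 2 and 14 lowest in library 1. These counts have no share over all genes beside them. In the storage list, beside Plin2, the adipocyte-linked Fabp4 had 67.8, 108 and 115 FPKM, Hilpda 71.8, 41.4 and 48.9 FPKM and the desaturase Scd1 8.46, 28.4 and 24.9 FPKM, so that Scd1 and Fabp4 were low in library 1 and Plin2 and Hilpda high. The sum of the adipocyte markers below was also lowest in library 1, and the part of adipocyte RNA in the storage gene levels was not tested. Fatty acid oxidation genes had a median of 16.5 FPKM, with the carnitine transferase Cpt1a at 68.9 ± 8.72 FPKM.

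The summed level of the respiratory chain differed little between libraries. Of 70 listed nuclear subunit genes 68 were at 1 FPKM or more, with a median of 32.7 FPKM and a sum of 3516 ± 35.4 FPKM, and Cox6b1 led with 244 ± 21.7 FPKM. Citric acid cycle genes had a median of 24.0 FPKM, all 31 at 1 FPKM or more, with Idh1 at 107 ± 3.97 FPKM. Irg1, which makes itaconate from a cycle intermediate, had 5.17 FPKM. Of the 15 mitochondrially encoded members 9 were listed, and mt-Co2, mt-Co3 and mt-Atp6 were among those not listed. The listed mitochondrial transcripts were uneven: mt-Rnr2 had 8681, 8290 and 9810 FPKM, mt-Co1 2945 ± 218, mt-Nd1 618 ± 26.9 and mt-Cytb 282 ± 16.6 FPKM, while mt-Nd4 had 61.6 ± 4.86 FPKM. The levels of mt-Co1 and mt-Nd4 are uncertain, since 51.1% and 62.2% of their windows recur in other genes, against 1.04% for mt-Rnr2 and none for mt-Nd1 and mt-Cytb. The 5-lipoxygenase partner Alox5ap led the eicosanoid genes with 413 ± 19.4 FPKM, and cyclooxygenase genes Ptgs2 and Ptgs1 had 36.0 and 32.9 FPKM.

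Glycolytic genes had a median of 8.93 FPKM. Pkm, Aldoa, Ldha, Tpi1 and Gpi1 had 111 ± 4.99, 99.0 ± 1.77, 69.7 ± 2.03, 53.2 ± 2.87 and 49.5 ± 1.53 FPKM, and Hk3, the myeloid hexokinase, 35.3, 35.3 and 35.3 FPKM. Steps of the same pathway stood far lower, with Gapdh at 4.57, Pgk1 at 3.18 and Pgam1 at 2.50 FPKM. Of the windows of these 3 genes, 24.7%, 53.9% and 36.2% occur unchanged in other annotated genes, against 6.43% for Aldoa and 4.18% for Tpi1, but also 25.8% for Pkm. The part of shared sequence in their levels was not tested. The 84 genes with ribosomal protein names, which include paralogs such as the muscle gene Rpl3l and the pseudogene Rps12l2, ran from 906 FPKM for Rplp1 to 0.0581 FPKM for Rpl3l. Of them 23 were at 100 FPKM or more and 26 below 10 FPKM, with Rpl8 at 731 FPKM but Rpl28 at 0.775 and Rps16 at 0.899 FPKM. Their median was 96.8 FPKM for the 14 with above 0 to 10% of windows shared, 19.1 FPKM for the 39 above 10 to 25%, 20.2 FPKM for the 22 above 25 to 50% and 6.89 FPKM for the 7 above 50%. Single genes did not follow these classes, since Rplp1 had 60% of windows shared, Rps3a1 at 102 FPKM 71.01% and Rpl28 20.0%. Over all protein-coding genes the same 4 classes had medians of 6.09, 6.52, 4.32 and 3.92 FPKM. Levels of genes with shared windows are uncertain in either direction, among them Gapdh, Pgk1, Pkm, Eef1a1 (39.4% shared), Ppia at 8.76 FPKM and most ribosomal protein genes.

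Genes of early activation were high in the RNA of these sorted lean cells. The VAT was digested with enzymes before the sort, and the part of that step in these levels was not tested. The 27 immediate early genes had a median of 116 FPKM, with Junb at 1091, 962 and 932, Fos at 603, 689 and 656 and Atf3 at 598, 600 and 580 FPKM. Of the 27, 23 were at 10 FPKM or more. The NF-kB inhibitors Nfkbia, Nfkbiz and Tnfaip3 had 525 ± 58.7, 215 ± 22.5 and 121 ± 13.5 FPKM, whereas the subunits Nfkb1 and Rela had 39.3 and 28.7 FPKM. Library 1 was highest for 15 of 26 immediate early and 15 of 27 NF-kB pathway genes. It was also the farthest from the middle value over all genes at 1 FPKM or more, and the share of those genes highest there was not counted. The chaperone Hspa5 of the endoplasmic reticulum had 437 ± 37.3 FPKM, and the heat shock genes Hspa1a and Hspa1b 149 ± 19.7 and 131 ± 23.2 FPKM, with 60.4% and 62.3% of windows shared. Interferon-stimulated genes had a lower median of 11.4 FPKM, with Ifitm2 and Ifitm3 at 407 ± 16.2 and 376 ± 20.1 FPKM (48.5% of windows of Ifitm2 shared) but Ifit1 at 5.69 and Ifi44 at 0.525 FPKM. All 20 cell cycle genes were at 1 FPKM or more. Among them the proliferation marker Mki67 had 28.2, 18.8 and 24.8 FPKM and the topoisomerase Top2a 20.2, 17.4 and 22.5 FPKM, while the mitotic cyclin Ccnb1 had 1.09 FPKM. In the PI3K, AKT and mTOR list, with a median of 13.04 FPKM, Sesn1 had 67.1, Akt1 54.4 and the leukocyte kinase Pik3cd 36.2 FPKM.

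Markers of other cells were present at very unequal levels. In sorted bulk RNA, fewer cells of a type and less RNA per cell cannot be told apart. The B and plasma cell list summed to 2316, 1218 and 1928 FPKM, nearly all of it immunoglobulin: Ighm had 1176, 590 and 832 FPKM, Igkc 896, 476 and 912 and the joining chain Igj 209, 93.8 and 139 FPKM. The surface genes of B cells were much lower, Cd79b at 10.2, Ms4a1 at 3.41 and Cd79a at 0.805 FPKM. Of the class-switched heavy chains, Igha had 63.9, 159 and 20.4 FPKM, and Ighg3 83.8 FPKM in library 1 and no read in the other 2. Ighg1 and Ighg2b had no read in any library, which allows up to 0.292 and 0.281 FPKM at 3 reads a library, counting error only.

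Fibroblast and preadipocyte markers summed to 949, 336 and 613 FPKM. Decorin (Dcn) had 339, 134 and 242 FPKM, the collagen Col3a1 188, 50.6 and 104 FPKM and Dpt 109, 42.9 and 83.1 FPKM. Of the 14 members, 12 were highest in library 1 and 13 lowest in library 2. The mast cell list went the same way at 375, 186 and 221 FPKM: the proteases Mcpt4, Cma1, Cpa3 and Tpsb2 had 98.9, 91.6, 83.5 and 65.2 FPKM in library 1 and 29.1 to 58.8 FPKM in libraries 2 and 3, and all 10 members at 1 FPKM or more were highest in library 1. T and NK cell markers were highest in another library. The 14 T cell genes summed to 52.0, 44.7 and 96.2 FPKM and the 11 NK and innate lymphoid genes to 89.4, 95.2 and 127 FPKM, and all 12 and all 9 members at 1 FPKM or more were highest in library 3. The T cell receptor gene Trac had 6.46, 5.79 and 19.2 FPKM and the granzyme Gzma 21.5, 28.1 and 37.1 FPKM. Most resident genes were lowest in library 1, where these sums of fibroblast and mast cell markers were highest. The part of those other cells in the resident gene levels was not tested.

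Dendritic cell genes were steadier, with sums of 406, 430 and 413 FPKM, of which Cd209a, also a macrophage gene, gave most. Among genes of conventional dendritic cells the transcription factor Batf3 had 57.3, Dpp4 15.1, Ccr7 10.1, Clec9a 9.30, Zbtb46 4.19 and Xcr1 3.56 FPKM, and the plasmacytoid marker Siglech had 18.3 FPKM. The neutrophil list summed to 123, 160 and 157 FPKM through S100a9 at 62.1 ± 6.50 and S100a8 at 54.8 ± 10.7 FPKM, while Ly6g had 0.940 FPKM and the granule genes Camp and Elane no read in any library, which allows up to 0.473 and 0.309 FPKM. Adipocyte genes summed to 86.7, 134 and 121 FPKM. Of its 10 genes 7 also stand in other lists here, and the leading one was the carbonic anhydrase Car3 at 44.03, 65.02 and 57.06 FPKM, beside adiponectin (Adipoq) at 4.76, 10.9 and 7.97 FPKM and leptin (Lep) at 0.798 FPKM. Endothelial, mesothelial, eosinophil and platelet lists each summed to between 3.25 and 12.8 FPKM in every library, and smooth muscle genes to 27.7, 22.2 and 18.2 FPKM. The highest endothelial, mesothelial, eosinophil, erythroid and platelet markers were Tek at 2.10, Upk3b at 1.98, Siglecf at 3.79, Hbb-bs at 6.22 and Ppbp at 1.90 FPKM.

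**Figure D4:**
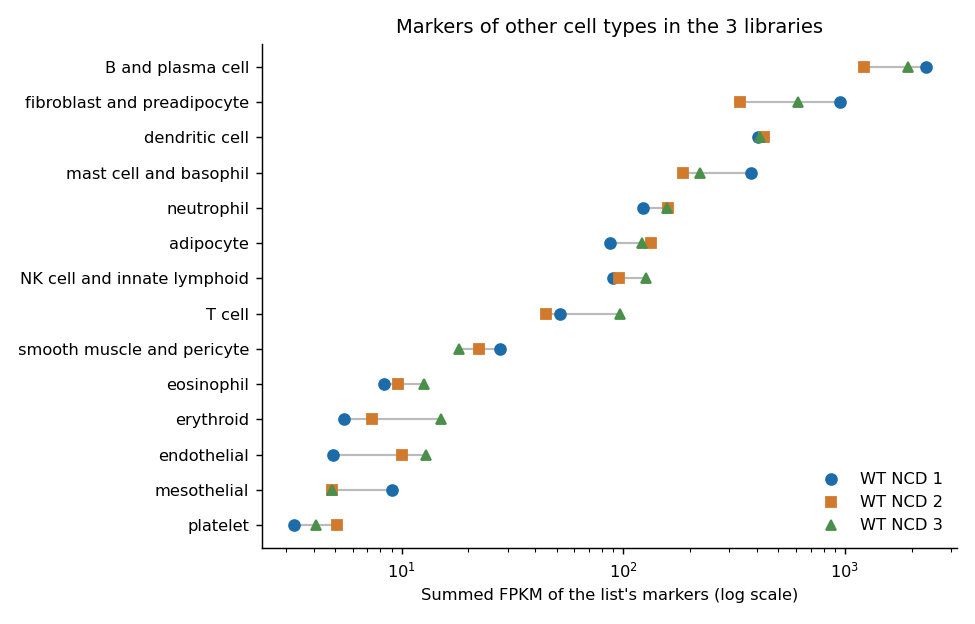
Summed FPKM of the markers of 14 other cell types (log scale) in each of the 3 WT NCD libraries, ordered by mean. Fibroblast and mast cell sums are highest in library 1 (949 and 375 FPKM), T and NK cell sums in library 3 (96.2 and 127 FPKM), and dendritic cell sums lie close together at 406 to 430 FPKM.

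The spread between the 3 pools was small for most genes. Over the 12038 genes at 1 FPKM or more, the median coefficient of variation (the SD over the mean) was 9.92%, where counting reads alone would give a median of 5.98%. A coefficient from 3 values tends to lie below the true one, so the excess over counting is if anything understated. Among the 457 genes from 100 to under 1000 FPKM it was 6.58%, against 1.60% from counting. Of the 5110 genes at 10 FPKM or more, 3611 (70.7%) varied by less than 10% and 65 by more than 50%. The steadiest at 100 FPKM or more were Tmem50a at 0.400%, the vesicle GTPase Rab8b at 0.413%, the survival gene Mcl1 at 0.463%, Ccdc109b at 0.573%, Itm2b at 0.697% and Stom at 0.773%. Lyz2 was the seventh in that order at 0.822%, and Tgfbi, Psmb1, the actin-branching genes Arpc2 and Arpc1b, and the cathepsin Ctsc followed up to 1.08%. Mcl1 had 566, 571 and 569 FPKM. All 12 coefficients lie below 1.52%, the median that counting reads alone would give for the 497 genes at 100 FPKM or more. They are the smallest of 497 coefficients from 3 values each, so they do not show that these genes are steadier than others.

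The widest spread at 10 FPKM or more belonged to antibody genes, which fill 11 of the first 12 places. In front were Ighg3 and the kappa segment Igkv8-30, each with reads in 1 library of 3, at a coefficient of 173%. The heavy chain segment Ighv6-6 had 291, 12.3 and 0 FPKM and Ighv1-9 had 0, 157 and 8.04 FPKM, so that library 1 and library 2 each had a leading segment nearly missing from the others. The twelfth place went to a gene with no symbol, at 30.1, 0 and 13.9 FPKM. It lies on chromosome 12 (115294077 to 115294498), between the heavy chain segments Ighv1-55 and Ighv1-63. Having no name, it was not counted among the antibody genes. Outside antigen receptor and small RNA genes, the first were Col1a2 at 38.4, 8.85 and 15.8 FPKM, Col6a2 at 19.5, 5.01 and 8.39 FPKM and Retnlg, a neutrophil gene, at 7.37, 11.01 and 25.8 FPKM. The 40 widest genes held 16 antibody genes, 12 small RNA genes and 8 protein-coding genes, and of these 8, 5 were the collagen genes Col1a2, Col6a2, Col6a1, Col6a3 and Col3a1. The small RNA genes rest on few reads, such as Mir1982 with 1, 17 and 18 reads in libraries 1, 2 and 3.

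**Figure D5:**
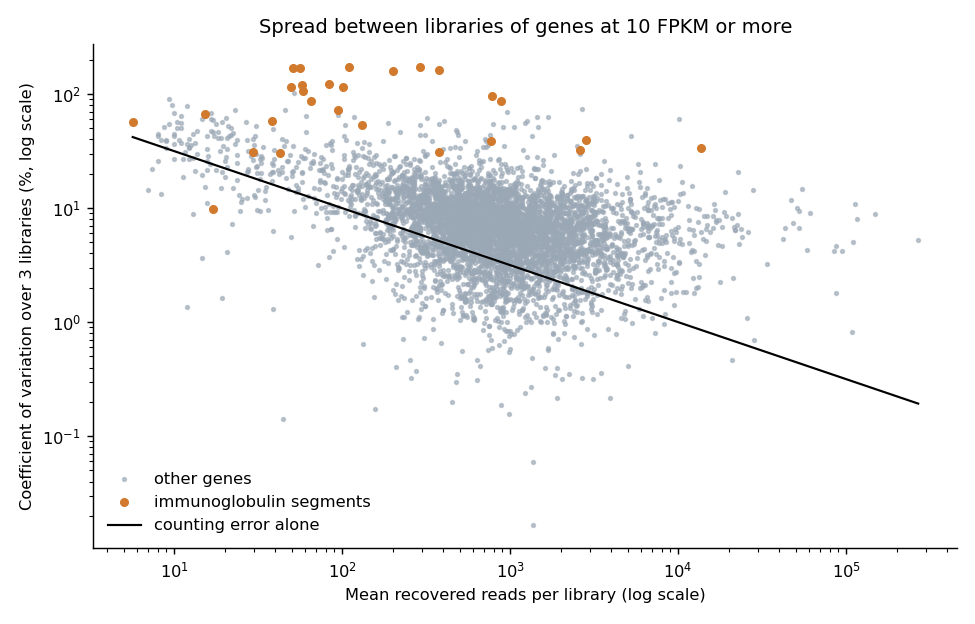
Coefficient of variation over the 3 WT NCD libraries (%, log scale) against mean reads per library (log scale) for the 5110 genes at 10 FPKM or more, with antibody genes in orange; the line is what counting error alone gives. Antibody segments reach 173%, while the median of all 5110 genes plotted is 6.97%.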

How the data were processed

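VAT was digested with enzymes, and CD45+ CD11b+ F4/80+ ATMs were sorted from the pooled SVF. Total RNA was made into TruSeq Stranded Ribo-Zero Gold libraries with single reads of 50 bases. The authors deposited 1 table of FPKM per gene; their notes name mm10, Novoalign and DESeq2 without versions, and how reads fitting several places were counted is not given in the sources used here. FPKM times listed length gave whole reads for all genes (within 6.2e-09 of a whole number in the 3 libraries). Every listed gene had at least 10 reads in some library of the 12, so that genes silent in lean WT cells are listed only if another library expressed them. Ranks, means, SDs and lists were computed with Python 3.11.15, numpy 2.4.6 and pandas 2.3.3, and figures drawn with matplotlib 3.10.9. The coefficient of variation and the recovery of reads were tested on simulated data.

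Members and lists were chosen with earlier results of these data known. Of 1276 list entries 1214 were listed, and the other 62 were not analysed here. A gene's shared windows are the percent of its 50-base windows, from GENCODE vM21 transcripts, that occur in another gene's transcripts on the same strand; 15166 of 15393 genes had a value. Genes named were the 4 markers, the 30 highest by FPKM among all and among named genes of at least 300 bases, the 10 with most reads, up to 8 leading members of each list (4 for other cell types) with members below 1 FPKM that define a role, and the 12 widest and steadiest genes at 10 and 100 FPKM. Further low or intermediate members of a list were named after their values were seen. Alternatives were other scalings, filters, units and leaving out each library. Intervals were not computed, and with n = 3 pools the SD is imprecise.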

Additional observations from a re-analysis of the deposited data

How the results depend on the processing

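Most of the description was little affected by scaling or by any library, but the median coefficient of variation was affected by both. Leaving out each library in turn gave 11975 to 12072 genes at 1 FPKM or more, 54.8% to 55.8% of the summed FPKM in the 100 most abundant genes, 29 of the 30 leading named genes each time, 43 to 44 lists above the median gene, 6 to 7 lists of other cell types summing to at least 100 FPKM, and a median coefficient of variation of 6.95% to 8.84%. That coefficient was 9.92% with all 3 libraries, 11.2% with each library scaled to the same sum, 6.97% for genes at 10 FPKM or more and 12.7% with no filter. With a library left out, the coefficient rests on fewer values a gene and tends to be smaller. The 100 leading genes held 53.1% of the summed FPKM among genes of at least 300 bases, and 28.1% of the reads. Ranking by reads, not per length, kept 18 of the 30 leading named genes. Of 94 list medians under another scaling, none moved by more than 1 SD over libraries, of 141 with a library left out, 17 did, and of 47 taken over members at 1 FPKM or more only, 23 did, with all 47 then above the median gene. No paired analysis was possible because no groups were compared. Depth limits low genes most: below 1 FPKM the median gene had 10.3 reads a library, and counting alone gives a coefficient of 31.1% there. From 1 to under 10 FPKM counting alone gives 8.60%, beside an observed median of 13.4%. Short genes at higher FPKM can rest on few reads too.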

Other observations

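Antibody transcripts differed between the pools by segment, not only by amount. Among heavy chain V genes, a different segment led in each library: Ighv6-6 with 48.3% of 2252 reads in library 1, Ighv1-9 with 44.5% of 1285 in library 2 and Ighv11-2 with 50.2% of 912 in library 3. The 5 leading heavy segments held 81.6% to 87.2% of those reads. The kappa segment was shared, Igkv14-126 leading in all 3 libraries with 53.9%, 35.8% and 55.3% of the kappa V reads. Ighv11-2, which had 116, 64.7 and 121 FPKM, and Igkv14-126, with 271, 117 and 234 FPKM, are known in the mouse as a pair of B-1 cell antibodies; 38.6% of the windows of Ighv11-2 occur in other genes too, so its level is uncertain. The lambda segment Iglv1 had 441, 152 and 42.5 FPKM.

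Of long noncoding RNAs, 157 of 330 typed first as lincRNA were at 1 FPKM or more. Malat1 had 1484 ± 74.7 FPKM, Yam1 398 FPKM, AI662270 77.4 FPKM and Neat1, the scaffold of paraspeckles, 52.1, 48.2 and 39.9 FPKM. Outside that type, Gm26917 had 1590 FPKM and Snhg3 230 FPKM. Gm26917 (39845073 to 39846245) and Yam1 (39846957 to 39848788) lie side by side on chromosome 17. Whether the reads of Gm26917 and Yam1 come from long noncoding RNAs was not tested, and their levels are uncertain. Xist, the RNA of the inactive X chromosome, had 43.5, 47.8 and 43.2 FPKM. Host genes of myeloid microRNAs were seen as well, Mir142hg at 39.7, 39.4 and 50.3 FPKM and Mir22hg at 31.5, 32.6 and 33.4 FPKM; the short rows of Mir21a at 75.4 and Mir223 at 47.1 FPKM rest on few bases and do not measure the mature microRNA.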
